A study of Mus musculus with 13 samples.

Results

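Sox10, Ngfr, Foxd3, Cdh19, Erbb3, Cadm4, Sox2 and Nes, 8 of the 25655 genes measured, are genes of Schwann cells and of the neural crest, and their transcript levels were followed in 13 cultures of mouse skin fibroblasts. They were picked by name with results on these libraries already known, and the choice drew on their levels in all 13 libraries. Their levels, and the comparisons between groups of libraries, are therefore a description of these libraries and not independent evidence about genotype.

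The series compared dermal fibroblasts of newborn mice that were wild type (WT) with those of mice carrying the G234D allele on both copies of Fbn1, the gene of fibrillin-1, a glycoprotein of the microfibrils of the extracellular matrix. All were untreated primary cultures, each under a number of its own; strain and exact age were not given in the sources used. Set 1 held 4 WT cultures (W1 to W4) and 4 G234D cultures (M1 to M4), and set 2 held 2 WT cultures (W5, W6) and 3 G234D cultures (M5 to M7). The titles carry a number for each culture, read here as an animal number: within set 1 the numbers of W1, M1, M2 and W2 are below 7000 and those of M3, M4, W3 and W4 are above it. These are called the earlier and the later animal numbers, a division that was known from earlier results, and W1 lies well below the other earlier numbers. No label says that the numbers mark a batch, a litter or a day.

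Schwann cells, the glia of peripheral nerves, arise from the neural crest, a migratory cell population of the embryo that also gives rise to melanocytes and sensory neurons. Sox10 is the transcription factor that both the crest and the whole Schwann lineage depend on. Schwann cell precursors travel along the growing nerves of the skin and survive on neuregulin, which axons present to the receptor ERBB3 and its partner ERBB2. Several of the genes are shared with other skin cells: Sox2 is also expressed in dermal papilla and Merkel cells, and Nes in many progenitor cells, including those of muscle.

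The genes lie on 7 chromosomes, so their levels are not those of 1 locus. On build mm10 (GENCODE M21), Sox10 lies at chr15:79154908-79165240 and Ngfr at chr11:95568818-95587735, both on the minus strand. Foxd3 lies at chr4:99656299-99658622 on the plus strand, Cdh19 at chr1:110888326-110977584 and Erbb3 at chr10:128567523-128589652, both on the minus strand. Cadm4 lies at chr7:24482023-24504539, Sox2 at chr3:34650405-34652461 and Nes at chr3:87971078-87980451, all 3 on the plus strand. Sox2 sits inside Sox2ot, a long RNA gene of the same strand, so that reads of the host transcript can be counted for Sox2 and its level is less certain.

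Because all 8 genes stood highest in M1 and M2, which is part of how they were chosen, the stretches before their starts are shown for 3 of them. RefSeq gave the 250 bases before the start for 5 of the 8 genes (Ngfr, Foxd3, Cadm4, Sox2 and Nes), on build GRCm38.p6. The letters ACAAAG and ACAATG, forms of the short motif that SOX proteins bind, were searched on both strands. They are in capitals below, 5′ to 3′, and no match overlapped another. The windows are chr4:99656049-99656298 for Foxd3, chr7:24481773-24482022 for Cadm4 and chr3:34649745-34649994 for Sox2, all on the plus strand, and the Sox2 window precedes the RefSeq start, which lies before the GENCODE start given above.
Foxd3: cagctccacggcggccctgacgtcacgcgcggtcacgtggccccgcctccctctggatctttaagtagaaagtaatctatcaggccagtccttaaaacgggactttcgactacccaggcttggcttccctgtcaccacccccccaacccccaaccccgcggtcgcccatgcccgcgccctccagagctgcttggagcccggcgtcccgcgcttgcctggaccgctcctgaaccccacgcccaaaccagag
Cadm4: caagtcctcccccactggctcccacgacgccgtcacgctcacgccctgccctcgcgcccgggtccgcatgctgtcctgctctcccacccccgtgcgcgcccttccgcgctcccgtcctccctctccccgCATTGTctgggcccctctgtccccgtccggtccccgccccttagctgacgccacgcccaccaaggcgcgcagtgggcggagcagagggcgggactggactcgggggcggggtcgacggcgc
Sox2: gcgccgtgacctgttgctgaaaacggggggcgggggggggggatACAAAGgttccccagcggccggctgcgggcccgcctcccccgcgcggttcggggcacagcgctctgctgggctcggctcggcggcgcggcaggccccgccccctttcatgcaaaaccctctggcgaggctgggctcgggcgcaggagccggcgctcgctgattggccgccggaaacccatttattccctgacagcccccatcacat
Cadm4 held 1 match, ACAATG read on the minus strand, beginning 121 bases before the start, and Sox2 held 1, ACAAAG, beginning 206 bases before it. The windows of Foxd3, Ngfr and Nes held none of these letters. Of 32851 windows of the same length, 16.5% held ACAAAG, 10.7% held ACAATG and 25.2% held either, against 2 of the 5 windows here. The 3 windows printed were 65.6% (Foxd3), 75.2% (Cadm4) and 72.0% (Sox2) G or C.

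Levels are given as TPM, each library's transcript levels divided by transcript length and scaled to a common total by the authors, so that genes can be compared with each other. TPM hold no read totals, so the depth behind a value is unknown. Each library listed between 11741 and 12042 genes at 1 TPM or more. M1 and M2, the G234D cultures of the earlier animal numbers, stood apart from the other 11 libraries, and the fits to all 13 libraries or to set 1, the set by genotype contrast and the correlations are given with and without them. Defining transcripts of the labelled cell type were abundant in every library: Col1a1, the main chain of collagen I, stood between 9405 and 14550 TPM. The 8 genes together summed to 269 and 279 TPM in M1 and M2 and to between 37.8 and 81.8 TPM in the other 11. In RNA from a whole culture, fewer cells of a type and less RNA per cell cannot be told apart.

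Of the 3 transcription factors, Sox10 stood at 22.4 TPM in M1 and 22.6 TPM in M2, against 3.30 TPM in W1 and 4.20 TPM in W2. In the later animal numbers it stood at 4.49 (W3), 5.16 (W4), 6.53 (M3) and 6.15 TPM (M4), and in set 2 at 3.05 (W5), 3.05 (W6), 3.13 (M5), 3.55 (M6) and 3.21 TPM (M7). Every G234D culture lay above every WT culture of its own set, but the margin was wide only for M1 and M2: in set 2 the lowest G234D value and the highest WT value differed by less than the spread among the G234D cultures. Foxd3, a forkhead factor that holds crest cells in an unspecialised state, stood at 2.28 (W1), 2.31 (W2), 13.4 (M1) and 11.98 TPM (M2). Its later animal numbers gave 2.54 (W3), 3.08 (W4), 5.62 (M3) and 3.25 TPM (M4), and set 2 gave 2.63 (W5), 2.12 (W6), 2.38 (M5), 1.56 (M6) and 3.40 TPM (M7). The genotypes did not overlap in set 1 and overlapped fully in set 2, where a G234D culture held both the lowest and the highest value.

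Sox2, a factor of immature Schwann cells and of neural progenitors, was the lowest of the 8 by its mean over 13 libraries. It stood at 0.74 (W1), 0.70 (W2), 8.11 (M1) and 6.99 TPM (M2), then at 1.33 (W3), 1.89 (W4), 1.47 (M3) and 1.07 TPM (M4). Set 2 gave 0.79 (W5), 0.51 (W6), 2.05 (M5), 1.27 (M6) and 1.19 TPM (M7). Outside M1 and M2 its pattern differed from that of Sox10: both later G234D cultures lay below or within the WT range, and in set 2 all 3 G234D cultures lay above both WT cultures. Sox2 reached 1 TPM in 9 of 13 libraries, and in set 2 only in the 3 G234D libraries, through which alone it passed the filter on low values there; the other 7 genes reached 1 TPM in 13 of 13.

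The receptors followed Sox10. Ngfr, the low-affinity neurotrophin receptor, stood at 9.14 (W1), 9.97 (W2), 62.5 (M1) and 65.9 TPM (M2). It stood at 10.8 (W3), 12.1 (W4), 21.2 (M3) and 13.5 TPM (M4) in the later animal numbers, and at 9.72 (W5), 8.34 (W6), 10.7 (M5), 9.27 (M6) and 12.6 TPM (M7) in set 2. Its genotypes did not overlap in set 1, and in set 2 M6 lay between the WT cultures. Erbb3, the neuregulin receptor that signals with ERBB2, stood at 1.66 (W1), 2.67 (W2), 11.99 (M1) and 10.4 TPM (M2). The later animal numbers gave 2.80 (W3), 2.70 (W4), 3.42 (M3) and 2.62 TPM (M4), and set 2 gave 1.80 (W5), 1.14 (W6), 1.58 (M5), 1.45 (M6) and 1.65 TPM (M7). Apart from M1, M2 and M3, no G234D culture lay above the WT range of its set.

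Both adhesion genes had the same shape. Cadm4, an adhesion molecule by which Schwann cells hold on to axons, stood at 11.9 (W1), 12.9 (W2), 69.2 (M1) and 65.3 TPM (M2). Later animal numbers gave 13.02 (W3), 14.7 (W4), 18.3 (M3) and 16.03 TPM (M4), and set 2 gave 8.99 (W5), 8.14 (W6), 11.3 (M5), 7.66 (M6) and 9.58 TPM (M7). Its genotypes were separate in set 1 and overlapped in set 2, where M6 was the lowest of the 5. Cdh19, a cadherin of Schwann cell precursors, stood at 2.01 (W1), 1.85 (W2), 12.9 (M1) and 13.5 TPM (M2). It gave 2.13 (W3), 2.42 (W4), 4.298 (M3) and 3.22 TPM (M4), then 1.72 (W5), 1.52 (W6), 1.72 (M5), 1.78 (M6) and 1.51 TPM (M7) in set 2. In set 2 the Cdh19 values of both genotypes spanned nearly the same narrow range.

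Nes, the intermediate filament nestin of progenitor cells, had the highest mean of the 8 over 13 libraries. It stood at 28.4 (W1), 28.7 (W2), 78.7 (M1) and 72.2 TPM (M2), then at 19.3 (W3), 25.7 (W4), 20.9 (M3) and 14.6 TPM (M4). In set 2 it stood at 14.1 (W5), 12.99 (W6), 19.9 (M5), 13.4 (M6) and 19.7 TPM (M7). It differed from the other 7 in that W1 and W2 held the highest levels after M1 and M2. Neither later G234D culture lay above the later WT mean.

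**Figure D1:**
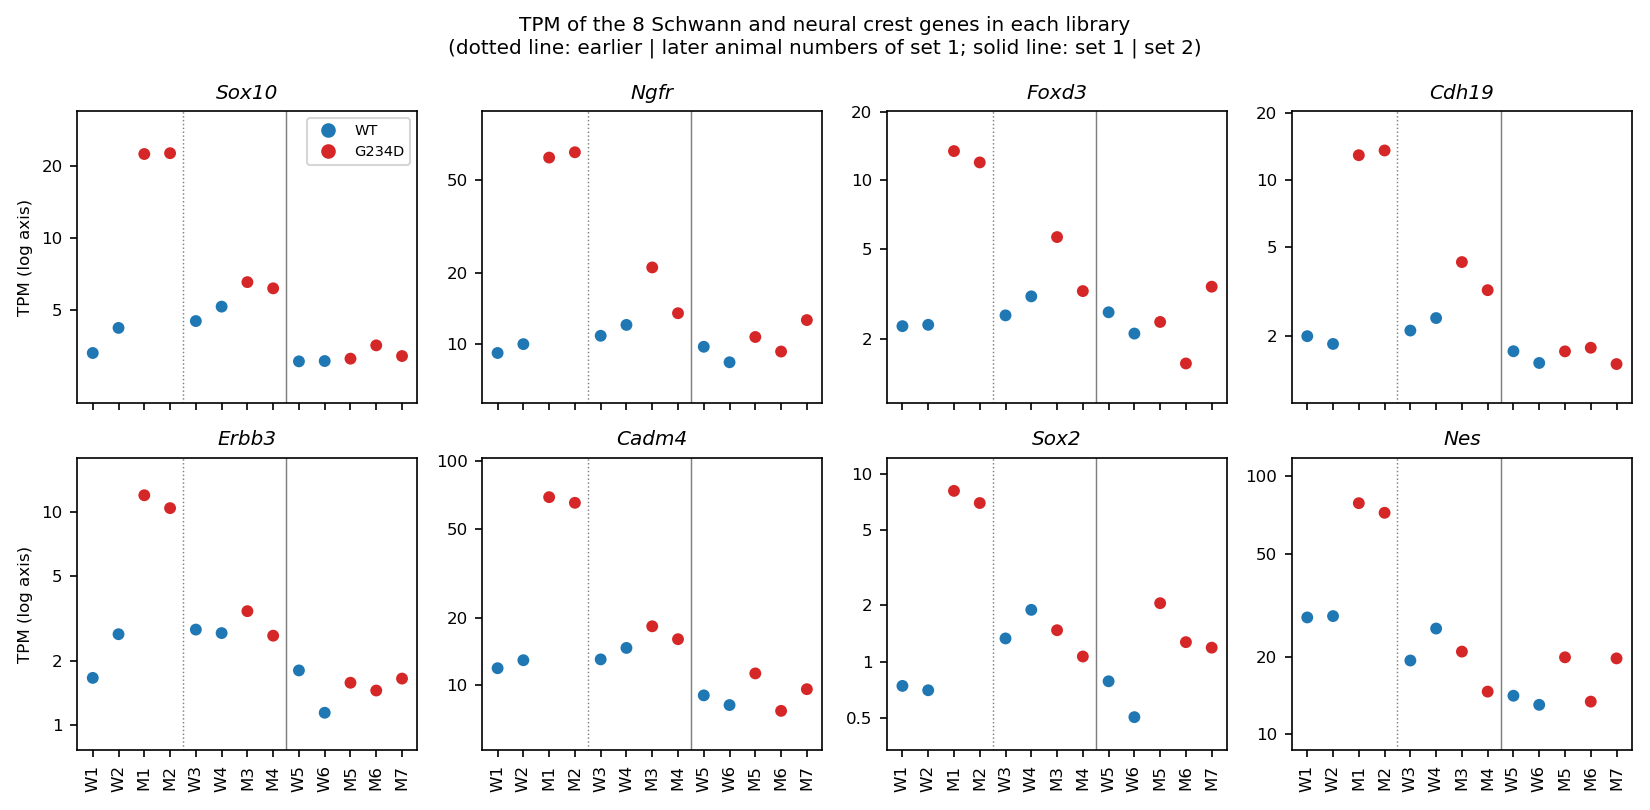
TPM of each gene (log axis) in each library, WT in blue and G234D in red; the dotted line divides the earlier from the later animal numbers of set 1 and the solid line divides set 1 from set 2. In all 8 panels M1 and M2 sit above the other 11 libraries, and M3 is the next highest in 6 panels.

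M1 and M2 both exceeded every other library for all 8 genes, which was the case for 13.3% of all 11942 genes tested (both lay below every other library for 9.87%) and is part of how the genes were chosen. The lower of M1 and M2 was between 2.13 times (Foxd3) and 3.57 times (Cadm4) the highest of the other 11 libraries. That next highest library was M3 for 6 genes, M5 for Sox2 and W2 for Nes. Among the other 11 libraries the range from lowest to highest was 2.14-fold for Sox10 and 4.04-fold for Sox2, with the other 6 genes in between.

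Ordered by group mean, the earlier G234D cultures came first for all 8 genes. For Sox10, Ngfr, Foxd3, Cdh19, Erbb3 and Cadm4 the later G234D cultures came next, followed by the later WT cultures. For Sox10 these means were 22.5 ± 0.125, 6.34 ± 0.268 and 4.82 ± 0.473 TPM (SD, n = 2 each), ahead of the earlier WT cultures at 3.75 ± 0.638 TPM (SD, n = 2), set 2 G234D at 3.30 ± 0.227 TPM (SD, n = 3) and set 2 WT at 3.05 ± 0.00645 TPM (SD, n = 2). For Cadm4 the same order ran 67.3 ± 2.76, 17.2 ± 1.62, 13.8 ± 1.16 and 12.4 ± 0.719 TPM (SD, n = 2 each), then 9.51 ± 1.81 TPM (SD, n = 3) and 8.56 ± 0.603 TPM (SD, n = 2). The step from the first to the second group was free of overlap for all 8 genes. The step between the later genotypes was free of overlap for 5 of the 6 genes, with Erbb3 the exception. The share of all genes free of overlap at these steps was not counted, so nothing is read from these counts. The set 2 genotypes, at the foot of the order for Sox10 and Cadm4, lay within about 1 SD of each other for Cadm4.

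Genotype differences are log2(TPM + 1) of G234D minus that of WT, a scale that makes differences at low TPM look smaller than they are, and genes were called by limma at a Benjamini-Hochberg adjusted p under 0.05 over all genes. Within the earlier animal numbers (2 against 2) the differences were 2.63 for Ngfr (SE 0.17), 2.35 for Cadm4 (SE 0.090), 2.31 for Sox10 (SE 0.12) and 2.31 for Sox2 (SE 0.17). They were 2.28 for Cdh19 (SE 0.14), 2.05 for Foxd3 (SE 0.19), 1.96 for Erbb3 (SE 0.17) and 1.37 for Nes (SE 0.18). As ratios of mean TPM these groups stood 10.4-fold apart for Sox2, 6.85-fold for Cdh19, 6.71-fold for Ngfr and 5.99-fold for Sox10. The ratio was 5.53-fold for Foxd3, 5.43-fold for Cadm4, 5.18-fold for Erbb3 and 2.65-fold for Nes, the smallest of the 8. All 8 genes were called, all higher, where 3.92% of the 11905 genes tested were called and 2.42% were higher, and 6 of the 8 differed by 2 or more, where 0.193% did; the genes were chosen on these libraries, so nothing is read from either count. With the replicate number as a block 7 of the 8 were called, Nes not (limma adjusted p = 0.0635). The median difference was 2.29 over the 8 genes and −0.01 over all genes.

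Within the later animal numbers (2 against 2) 0 of the 8 genes were called, with 0.269% of all genes called and 0.0924% called higher. The differences were 0.53 for both Ngfr (SE 0.17) and Cdh19 (SE 0.14), 0.48 for Foxd3 (SE 0.19), 0.34 for Sox10 (SE 0.12) and 0.29 for Cadm4 (SE 0.090). For these 5 genes both G234D cultures lay above both WT cultures. The share of all genes so placed was not counted, so nothing is read from this. Erbb3 (0.09, SE 0.17), Sox2 (−0.20, SE 0.17) and Nes (−0.33, SE 0.18) differed by under 2 SE. At an unadjusted p under 0.05, 5 of the 8 genes and 1478 of all 11905 genes passed. The differences of the later animal numbers were smaller than those of the earlier by between 1.57 (Foxd3) and 2.51 (Sox2), a contrast in which 2.81% of genes were called, 1.87% lower and 0.932% higher, and all 8 genes were lower; again the genes were chosen with this known. With the replicate block 6 of the 8 were called, Foxd3 (adjusted p = 0.0571) and Nes (adjusted p = 0.0893) not. All 8 differences rest on M1 and M2, since each group held 2 libraries; with 1 library left out in turn between 4 (without M1) and 8 of the genes stayed called, 5 without W4 and 6 without W1 or W2. Between the later and the earlier animal numbers, adjusted for genotype, the 8 differences ran from −0.58 (Foxd3) to −1.19 (Nes) and 0 of the 8 genes were called, although 7.14% of all genes were, 4.35% as lower in the later numbers. There 1 of the 8 and 3173 of all genes had an unadjusted p under 0.05. These differences average over genotypes that differed in direction. Among WT cultures the earlier mean TPM exceeded the later for 1 of the 8 genes, Nes (1.27-fold). The other WT ratios, earlier over later, ran from 0.45 (Sox2) to 0.896 (Cadm4). Among G234D cultures the ratio was over 1 for all 8, from 2.86 (Foxd3) to 5.96 (Sox2). Apart from Nes, the negative differences therefore came from the G234D cultures.

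In set 2 (2 against 3) 0 of the 8 genes were called, and 0.00829% of all 12060 genes were, which is 1 gene. The difference was 0.59 for Sox2 (95% interval 0.13 to 1.06; 1.09 with a pseudocount of 0.1 TPM, and a 2.32-fold ratio of mean TPM). It was 0.34 for Nes (−0.04 to 0.72), 0.24 for Ngfr (−0.05 to 0.53) and 0.12 for Cadm4 (−0.20 to 0.44). It was 0.08 for Sox10 (−0.21 to 0.38), 0.06 for Erbb3 (−0.34 to 0.46), 0.03 for Cdh19 (−0.33 to 0.39) and 0.00 for Foxd3 (−0.50 to 0.50). For each of the 8 genes the upper end of this interval lay below the lower end of the interval within the earlier animal numbers, most closely for Nes (0.72 against 0.96); the difference between those intervals was not itself tested. The 8 genes were chosen with their levels in M1 and M2 known, so nothing is read from this. Sox2 alone had an unadjusted p under 0.05, as 781 of all genes did, and its position rests on levels of 0.51 to 2.05 TPM. It passed the filter on low values here through the 3 G234D libraries alone, the group in which it was higher. Nothing is therefore read from its p or its interval.

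**Figure D2:**
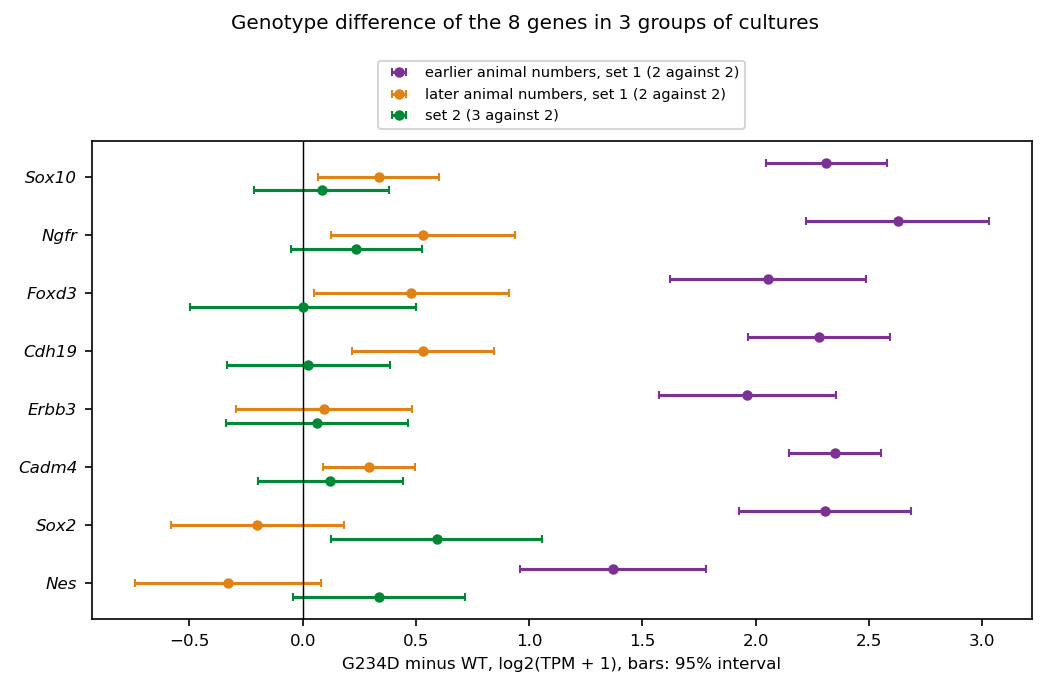
G234D minus WT difference of each gene on the log2(TPM + 1) scale (points) with its 95% interval (bars), for the earlier animal numbers, the later animal numbers and set 2. The earlier animal numbers lie between 1.37 and 2.63, to the right of both other groups for every gene.

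In the fit to all 13 libraries, which adjusts for set, 0 of the 8 genes and 0.0% of all 11942 genes were called by limma. At an unadjusted p under 0.05 there were 7 of the 8 genes and 769 of all genes. The differences ran from 0.45 for Nes (SE 0.35) to 1.08 for Ngfr (SE 0.37), with a median of 0.87 against 0.01 over all genes. Without M1 and M2 they were 0.45 for Ngfr, 0.33 for both Cdh19 and Sox2, 0.31 for Foxd3, 0.29 for Sox10, 0.25 for Cadm4, 0.15 for Erbb3 and −0.10 for Nes. In set 1 (4 against 4) 0 of the 8 genes and 0.0% of all 11905 genes were called, with 6 of the 8 and 721 of all genes at an unadjusted p under 0.05. With the replicate number as a block 1 gene was called, and without M1 and M2 23 genes were; none of them was among the 8. The set 1 differences ran from 0.52 for Nes (SE 0.52) to 1.58 for Ngfr (SE 0.48) and, without M1 and M2, from −0.50 for Nes to 0.65 for Ngfr. The set by genotype contrast (set 2 minus set 1) called 0 of the 8 genes and 0.0% of all genes, with 2 of the 8 (Cdh19, −1.38, and Foxd3, −1.27) and 691 of all genes at an unadjusted p under 0.05. Without M1 and M2 these were −0.59 and −0.58, those of Sox10, Ngfr, Cadm4 and Erbb3 lay between −0.16 and −0.41, and Sox2 (from −0.46 to 0.50) and Nes (from −0.18 to 0.84) changed sign. These comparisons share libraries, so their values are not separate results.

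Relative to Sox10, the proportions of most of the genes were nearly as in the other libraries when all stood high. The ratio of Cdh19 to Sox10 was 0.576 in M1 and 0.600 in M2, within the 0.441 to 0.658 of the other 11 libraries. Over all 13 libraries this ratio spanned 1.49-fold while Cdh19 itself spanned 8.99-fold. Cadm4 stood at 3.09 and 2.89 times Sox10 in M1 and M2, within 2.16 to 3.61 elsewhere, and its ratio spanned 1.67-fold against 9.03-fold for its level. For Erbb3 (0.535 and 0.462, within 0.373 to 0.634) and Ngfr (2.79 and 2.92, within 2.20 to 3.94) the ratios spanned 1.70-fold and 1.79-fold. The Foxd3 ratio spanned 2.41-fold, from 0.440 in M6 to 1.06 in M7. Sox2 and Nes were looser: the Sox2 ratio spanned 3.95-fold, from 0.166 in W6 to 0.655 in M5, and the Nes ratio 3.62-fold, from 2.38 in M4 to 8.59 in W1. For all 7 genes M1 and M2 lay inside the range of the other 11 libraries.

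**Figure D3:**
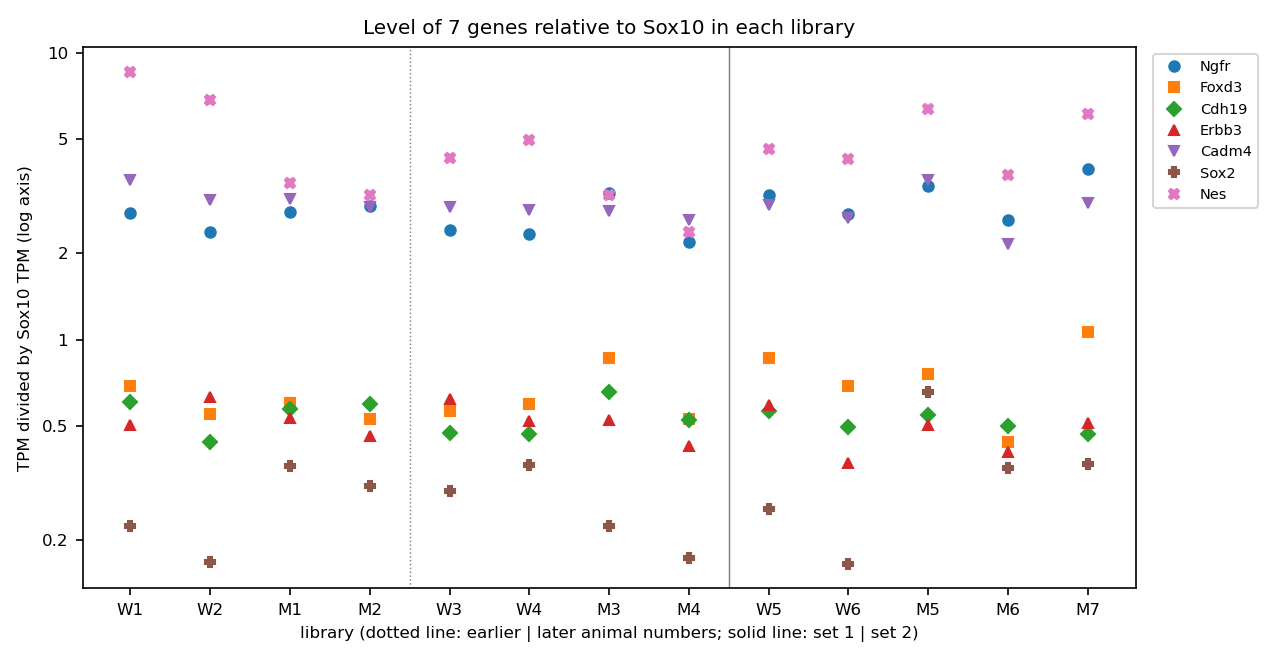
TPM of 7 genes divided by the TPM of Sox10 in the same library (log axis), with the lines between animal number groups and sets as before. Cdh19, Erbb3, Cadm4 and Ngfr keep within a 1.79-fold band across all 13 libraries, while Sox2 and Nes spread over 3.95-fold and 3.62-fold.

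Across the 13 libraries, after subtracting the mean of each set, Pearson's r between the log2(TPM + 1) values of the 28 pairs ran from 0.797 to 0.988, with a median of 0.948. These points share libraries and the values of M1 and M2 stand apart in all of them, so that the coefficients mostly restate those libraries. Without M1 and M2 the median over 11 libraries was 0.611 and the range −0.564 to 0.927. The 15 pairs among Sox10, Ngfr, Foxd3, Cdh19, Erbb3 and Cadm4 stayed positive, from 0.562 to 0.927 with a median of 0.732, and Ngfr with Foxd3 was the closest pair. M3 was the highest of the 11 libraries for all 6 of these genes. By ranks the 15 pairs ran from 0.255 (Sox10 with Erbb3) to 0.909 (Ngfr with Cadm4), with a median of 0.645. No values are given here for pairs of other genes. By Pearson's r the 6 pairs of Sox2 with these genes ran from 0.308 to 0.604. Nes was negative with 6 of the other 7 genes (−0.564 with Sox10) and 0.179 with Sox2. Set beside the mean of the other 7 genes over those 11 libraries, r was 0.926 for Ngfr, 0.889 for Cadm4, 0.546 for Sox2 and −0.183 for Nes. No correlation is given within set 2, which holds 5 libraries.

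**Figure D4:**
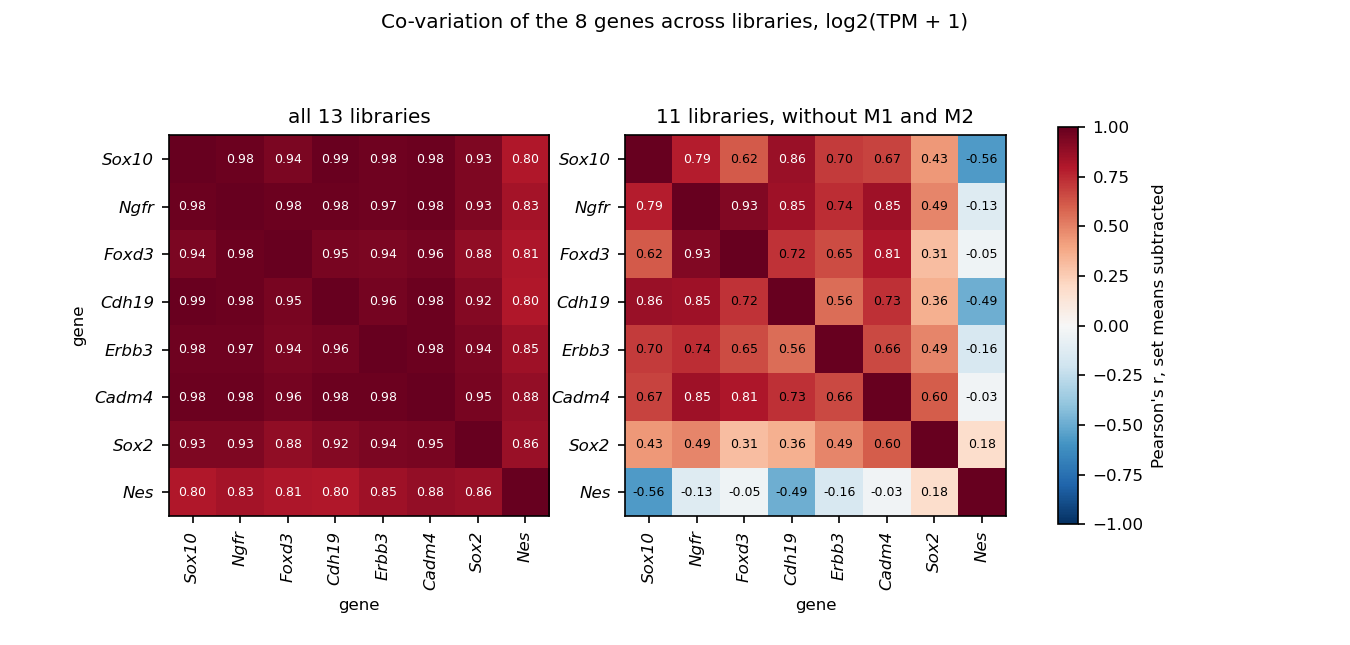
Pearson's r between each pair of genes (log2(TPM + 1), set means subtracted) over all 13 libraries on the left and over the 11 libraries other than M1 and M2 on the right. Leaving out M1 and M2 keeps the upper 6 genes positive with each other and takes Nes to between −0.564 and 0.179.

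Among the 10 genes outside the 8 whose profile over 13 libraries lay closest to their mean profile (Pearson's r, set means subtracted) were Gas7, L1cam, Lgi4, Col18a1, Atp2a1, Mmp15, Cadm1, Fgf5 and Scrn1, with r from 0.994 to 0.963. Over the 11 libraries without M1 and M2 the same genes gave r from 0.89 (Gas7) to 0.56 (Fgf5), with Lgi4 at 0.846 and L1cam at 0.752. L1cam, an adhesion molecule of axons and Schwann cells, stood at 12.5 TPM in M1 and 11.02 TPM in M2, and between 1.56 and 3.30 TPM elsewhere. Lgi4, a secreted protein that Schwann cells need to myelinate, stood at 8.43 and 8.99 TPM, and between 1.17 and 3.38 TPM elsewhere. L1cam and Lgi4 also belong to the Schwann cell list described next. Atp2a1, the calcium pump of fast muscle fibres, stood 9.53-fold higher in M1 and M2 than in W1 and W2.

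Of a list of 25 other Schwann cell and glial genes, 14 passed the filter in set 1, and within the earlier animal numbers 6 rose and 0 fell, where 2.42% of all genes were called higher and 1.5% lower. Among them were L1cam (2.02, limma adjusted p = 0.000121), Lgi4 (1.90, adjusted p = 0.000405), Gap43, a growth protein of axons and immature Schwann cells (1.008, adjusted p = 0.0128), Adgrg6, an adhesion receptor needed for myelination (0.65, adjusted p = 0.0148), and Ptprz1, a receptor phosphatase of glia (0.49, adjusted p = 0.0342, and 0.058 with the replicate block, under which the other 5 were still called). The median of the 14 was 0.33. The most abundant of the list, Pmp22 (0.12) and Ncam1 (−0.09), were not called, and stood at 146 TPM or more and 69.6 TPM or more in every library. Gfap, a filament of non-myelinating glia, lay at 0.101 TPM or less in every library. Mbp, a protein of the myelin sheath, lay between 0.495 and 1.66 TPM, with M1 at 1.45 and M2 at 1.20 TPM inside the range of the others, and Mag, another, was listed at 0 in both. Gfap, Mbp and Mag were picked out after their values were seen. In the later animal numbers, in set 2 and over both sets 0 genes of the list were called.

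Fewer genes were called in the other lists of related pathways. Among 11 neural crest regulators tested, 1 rose, Pax3 (0.84, limma adjusted p = 0.00716), a factor of crest and of muscle precursors, and 1 fell, Twist1 (−0.34, adjusted p = 0.0116), which fibroblasts express at high levels. Pax3 stood at 10.96 TPM in M1 and 10.95 TPM in M2 and between 1.81 and 7.51 TPM elsewhere. Of the neuregulin and ERBB genes 4 were tested and 0 were called; Erbb2, the partner of Erbb3, stood at 21.5 and 19.9 TPM in M1 and M2 and between 21.5 and 25.4 TPM elsewhere, so that it showed no rise beside Erbb3 in these libraries. Nrg1 was not analysed here. Among 4 close relatives of the 8 genes 1 rose, Cadm1 (1.80, adjusted p = 0.00035), a relative of Cadm4, from between 1.07 and 2.91 TPM in the other 11 libraries to 8.97 and 8.91 TPM. Pax3 and Ptprz1 lie outside the rule for named genes and are named because they were called.

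Markers of other cells moved in the same libraries. Of 16 skeletal muscle genes 12 were tested and 7 rose within the earlier animal numbers, among them Actc1, an actin of developing muscle, at 84.7 and 50.4 TPM in M1 and M2 against 2.30 to 15.7 TPM elsewhere (3.44, limma adjusted p = 0.0427, and 0.0842 with the replicate block, under which 5 of the 7 were still called). The list summed to 393 to 514 TPM in M1 and M2, 150 to 184 TPM in W1 and W2 and 78.5 to 191 TPM over all 11 others. Of 13 macrophage genes 10 were tested and 3 rose (Cd68, Ctss and Laptm5), of which Laptm5 alone was still called with the replicate block. Their list summed to 186 to 245 TPM in M1 and M2 and 44.5 to 109 TPM in W1 and W2. It summed to 39.8 to 53.8 TPM in the later animal numbers and 117 to 185 TPM in set 2. The 8 genes summed to 56.4 to 81.8 TPM in the later animal numbers and 37.8 to 52.8 TPM in set 2. Lyz2, the most abundant of the list, stood at 106 and 135 TPM in M1 and M2 and was not called. It stood at 61.3 and 23.1 TPM in W1 and W2. Ptprc, the defining marker of blood cells, lay at 0.618 TPM or less in all libraries. Its mean was 4.06-fold higher in M1 and M2 than in W1 and W2. Of the neuron genes 3 were tested and 1 rose, Uchl1 (1.38, limma adjusted p = 0.013, and 0.0612 with the replicate block), with Snap25 listed at 0 in every library. Their part in the result was not tested.

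For melanocytes, another crest lineage of skin, the list of 11 genes summed to 3.47 to 4.05 TPM in M1 and M2 and 3.62 to 10.2 TPM elsewhere. Dct, a melanin enzyme, was low in all the earlier animal numbers. It was listed at 0 in M1 and stood at 0.0467 TPM in M2, 0.139 TPM in W1 and 0.0775 TPM in W2. The later animal numbers gave 0.220 (M3) to 0.896 TPM (M4), and set 2 gave 1.02 to 1.96 TPM. Mitf, a factor that other cells also express, stood at 2.21 and 2.63 TPM in M1 and M2 and between 2.71 and 4.19 TPM elsewhere. It alone of this list was tested, and it was not called. For dermal papilla cells, which express Sox2, 10 genes were tested, 2 rose (Fgf7 and Rspo2) and 1 fell (Prdm1); Rspo2 was not called with the replicate block (limma adjusted p = 0.059). For Merkel cells, which also do, 4 were tested and 0 were called, and Atoh1, their defining factor, was listed at 0 in every library. Among 2 endothelial, 2 keratinocyte and 5 pericyte genes tested 0 were called. Of 10 fibroblast genes 1 fell, Pdgfra, at 37.8 TPM in M1 and 48.7 TPM in M2 against 83.3 TPM or more elsewhere (−0.997, limma adjusted p = 0.00489); with the replicate block Col1a1, Col1a2 and Fbln1 were called too. The fibroblast list summed to 23300 to 25600 TPM in M1 and M2 and 25900 to 34600 TPM elsewhere.

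Y-linked transcripts, looked up after the values were seen, were present in W1, M1, M2, W3 and M3 (Ddx3y at up to 61.9 TPM in M1), at a sum of 0.624 TPM over 4 such genes in M4, and listed at 0 in the other 7 libraries. W1 carried them, as M1 and M2 did, and W2 did not; the 8 genes summed to between 59.4 and 63.3 TPM in W1 and W2. M3 carried them and M4 held only the trace, and the 8 genes summed to 81.8 TPM in M3 and 60.5 TPM in M4. In set 2 all 5 libraries were listed at 0. The part of the Y-linked difference in the result was not tested.

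**Figure D5:**
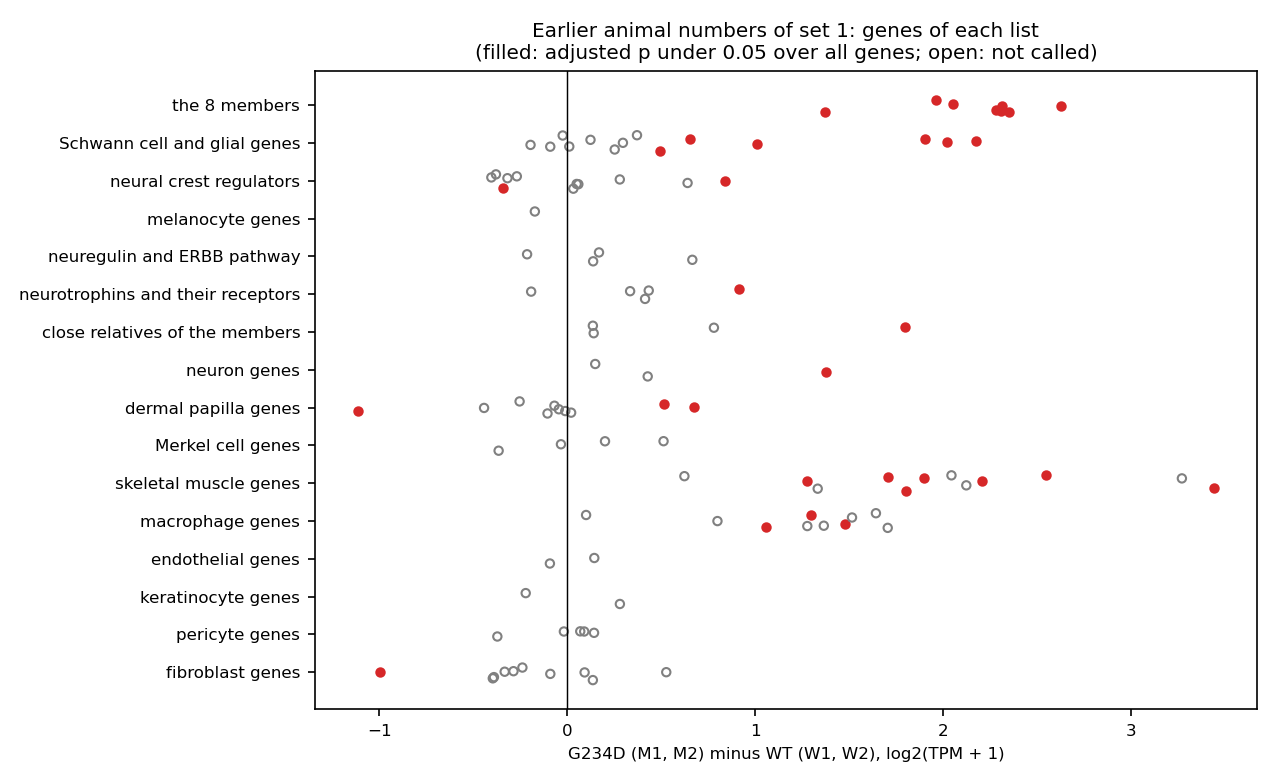
Difference of each tested gene, M1 and M2 minus W1 and W2 on the log2(TPM + 1) scale, by gene list; filled points have an adjusted p under 0.05 over all genes and open points do not. The 8 genes lie between 1.37 and 2.63, as do L1cam and Lgi4 of the Schwann cell and glial genes and several skeletal muscle and macrophage genes.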

How the data were processed

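The values are TPM per gene as the authors deposited them, per the file headers. In each library they sum to 1000000, over 25655 genes. Per the labels' protocols, total RNA purified on columns went into strand-specific libraries. Reads were handled on mm10, per the submitters' processing notes. Which aligner, counter and gene models were used is not given in the sources used here. If reads were shared between Sox2 and Sox2ot, which is not among the genes of these tables, Sox2 would be raised.

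From these values log2(TPM + 1) was computed and fitted with limma (version 3.58.1, R 4.3.3), using robust empirical Bayes with a trend on mean level and Benjamini-Hochberg adjustment over all genes tested. The filter asked for 1 TPM in 6 libraries for fits to all 13, in 4 for set 1 and in 2 for set 2. The fits of the earlier and later animal numbers shared 1 estimate of the spread over the 8 libraries of set 1. The models were tested on simulated data.

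The 8 genes, the gene lists, the division by animal number and the tests were chosen with earlier results of these data known. Genes were named by rule: the 8 genes, up to 4 genes of each list with the highest mean TPM, and the 10 genes closest in profile. Genes outside the rule are named where a count or value singled them out after the values were seen. A few genes within the rule are not reported here. P-values measure the spread between cultures, of which the labels say no more than an animal number. Promoter letters came from RefSeq.

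Deviations from the group mean, correlated between WT and G234D cultures of the same replicate number, gave 0.327, 0.198, 0.259 and 0.279 in set 1, all over 0.1, and −0.148 and 0.00965 in set 2. The WT culture of the same number correlated most with the G234D culture for replicates 1, 3 and 6, not for 2, 4 and 5. In set 1 the deviations still hold the difference between earlier and later animal numbers. These values therefore cannot tell whether cultures of the same number were paired. No label says what the numbers mark. Alternatives were another pseudocount, 2 other filters, no robust step, no set term, a replicate block, the animal number group as a covariate, each library left out, and M1 and M2 left out.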

Additional observations from a re-analysis of the deposited data

Results flagged for a closer look

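In set 1 WT, Erbb3 was lowest in W1 (1.66 TPM) against 2.67, 2.80 and 2.70 TPM in W2, W3 and W4. The gap to the nearest library was 0.88 of the group's range, above the 95% limit of Dixon's test for 4 libraries. Of 16 groups of 4 libraries examined for the 8 genes this was 1, and chance gives about 1 in 20.

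The genotype difference differed between the earlier and later animal numbers for all 8 genes (limma adjusted p under 0.05). The later difference minus the earlier one was −2.51 for Sox2, −2.10 for Ngfr, −2.06 for Cadm4 and −1.98 for Sox10. It was −1.87 for Erbb3, −1.75 for Cdh19, −1.70 for Nes and −1.57 for Foxd3. In this contrast 1.87% of all genes were called lower, and the 8 genes were chosen with it known. Without M1, 4 of the 8 were called, and with the replicate number as a block 6 were, Foxd3 and Nes not.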

How the results depend on the processing

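Over both sets 0 genes were called under every setting run. In set 1 (0 called) there was 1 call with the replicate block and 1 with the animal number group as a covariate, 23 without M1 and M2 (chosen after seeing the data), and 0 to 2 with 1 library left out. In set 2 (1 called) there were 0 with no filter, 0 with a filter at 10 TPM, 21 with the replicate block (these cultures share only a number), and 0 to 14 with 1 library left out. The set by genotype contrast (0 called) gave 16 without M1 and M2 (chosen after seeing the data) and 0 to 1 with 1 library left out. None of these calls was 1 of the 8 genes. The later minus earlier contrast (850) gave 269 with no filter and 36 to 883 with 1 library left out, and the animal number by genotype contrast (334) gave 139 and 46 to 674, and 189 with the replicate block, of which 6 of the 8 genes.

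Within the earlier animal numbers 467 genes were called, 68 without M1, 87 without W2, 165 without W1, 856 without M3 and 858 without M4. All 8 genes stayed called except 1 each without W1, W2 or M1, and with a filter at 10 TPM 3 of the 8 were tested and called. Within the later animal numbers 32 genes were called, 0 with no filter and 0 to 119 with 1 library left out, where 2 of the 8 were called without M4. With the replicate block, run for these contrasts after seeing the data, 326 genes were called within the earlier animal numbers (7 of the 8, Nes not) and 6 within the later (0 of the 8), and 0 in the set by genotype contrast. The block was not run for the later minus earlier contrast. The median correlation of the 8 genes was 0.948, 0.838 by ranks and 0.611 without M1 and M2. No read totals are held, so depth limits cannot be stated; a pseudocount of 0.1 TPM took Sox2, at 0.51 to 2.05 TPM outside M1 and M2, from 0.88 to 1.31 over both sets and from 0.59 to 1.09 in set 2. The causes of these shifts were not tested.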
